A study of Homo sapiens with 79 samples.

Results

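Stress-state cells of H9 retinal organoids were taken as the cells with at least 5 reads each in at least 4 of GDF15, ANGPTL4, TRIB3, STC2, HILPDA and NDRG1. Of 1976 cells, 71 met this rule, with 25 of 578 cells at day 60, 20 of 661 at day 90, 4 of 356 on chip a of day 200 and 22 of 381 on chip b of day 200. The cells were chosen by the measured reads of these 6 genes, so the values of the 6 genes describe the choice and carry no test. Organoids, layered aggregates that resemble the developing retina, were grown from a CRX-GFP reporter of H9, an established human embryonic stem cell line. All cultures were given T3, taurine, retinoic acid and foetal calf serum, no other treatment was compared, and the groups differ in their days of differentiation. Organoids were dissociated, single cells were captured on Fluidigm C1 chips, and full-length cDNA was made with the SMART-Seq v4 kit, which has no molecular identifiers. One chip was run at day 60, one at day 90 and a pair at day 200, and the 79 samples are the columns of these 4 chips. Neither the cells nor the columns of one chip count as replicate cultures, and comparisons were made over chips.

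A cell that lacks amino acids, or whose endoplasmic reticulum (ER) is overloaded, slows protein synthesis by the integrated stress response (ISR). The ISR raises the transcription factor ATF4, which turns on genes for making, importing and loading amino acids and feedback genes such as TRIB3. A cell short of oxygen stabilises hypoxia-inducible factor (HIF), which turns on glycolysis, glucose import and angiogenic factors. Of the 6 genes, GDF15 encodes a secreted stress hormone, TRIB3 a pseudokinase that restrains ATF4 and STC2 a secreted glycoprotein, and all are known ISR targets. ANGPTL4 encodes a secreted inhibitor of lipoprotein lipase, HILPDA a lipid droplet protein that inhibits fat breakdown, and NDRG1 a stress-induced cytoplasmic protein, and all are known to respond to low oxygen.

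Stress-state cells were sequenced somewhat more deeply than the other cells. The median was 218184 reads in stress-state cells and 187433 in the other cells, and the medians of genes detected were 3785 and 3409 (3064 and 2746 after thinning each cell to 50000 reads). The total per chip column ranged from 3414268 to 7999822 reads. The median share of mitochondrial reads was 4.18% in stress-state cells and 5.16% in other cells, with the widest gap at day 90 (1.08% and 4.21%). On chip a the order was reversed (6.14% and 4.14%). Of the 71 cells, 1 was called a doublet, as were 24 of the 1905 other cells. The chips share 38 of 40 cell barcodes because a barcode marks a chip row, and every cell was unique by chip, column and barcode. Chip a held only 4 stress-state cells, so counts of genes are also given without it.

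The promoters of members of both programmes are shown because the 2 programmes are the subject of the comparison. The sequences are RefSeq promoters on GRCh38.p14, 5′ to 3′ on the strand of the gene, restricted to bases before the start that lie in no GENCODE exon. Capitals mark the core of the C/EBP-ATF element (TGATGNAA) in ATF3 and CEBPG, which encode ISR transcription factors, and the core of the hypoxia element (ACGTG) in ANGPTL4 and in HK2, which encodes a hexokinase. Both strands were searched, and a match to ACGTG on one strand reads CACGT on the other.
ANGPTL4 (chr19:8363905-8364154, + strand): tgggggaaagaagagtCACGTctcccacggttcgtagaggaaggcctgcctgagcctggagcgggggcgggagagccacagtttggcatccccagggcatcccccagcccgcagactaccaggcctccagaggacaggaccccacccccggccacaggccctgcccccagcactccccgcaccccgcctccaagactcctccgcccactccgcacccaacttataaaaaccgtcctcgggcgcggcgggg
HK2 (chr2:74834920-74835169, + strand): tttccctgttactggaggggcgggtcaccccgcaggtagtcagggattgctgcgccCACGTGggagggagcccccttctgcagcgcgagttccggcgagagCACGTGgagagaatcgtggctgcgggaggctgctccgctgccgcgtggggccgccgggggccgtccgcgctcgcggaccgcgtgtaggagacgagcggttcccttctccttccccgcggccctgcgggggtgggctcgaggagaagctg
ATF3 (chr1:212565157-212565333, + strand): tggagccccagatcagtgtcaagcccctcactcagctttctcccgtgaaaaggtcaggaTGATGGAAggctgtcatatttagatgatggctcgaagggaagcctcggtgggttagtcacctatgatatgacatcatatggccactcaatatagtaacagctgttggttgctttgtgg
CEBPG (chr19:33373896-33374112, + strand): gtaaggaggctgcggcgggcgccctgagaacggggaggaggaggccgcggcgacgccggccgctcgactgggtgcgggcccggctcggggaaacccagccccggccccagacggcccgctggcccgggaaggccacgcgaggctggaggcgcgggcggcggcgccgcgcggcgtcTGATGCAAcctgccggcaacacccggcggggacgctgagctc

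The match began 234 bases before the start in ANGPTL4, 191 in ATF3 and 42 in CEBPG, and HK2 held a pair of CACGTG runs, each of which reads as a match on both strands. TGATGNAA was found in 3.62% of all 35116 promoters of 300 bases and ACGTG in 21.4%. By gene, with any of its promoters counted, TGATGNAA was found in 4.46% of all genes. Among genes matched to the promoter table, it was found in 7 of 10 aminoacyl-tRNA synthetase, 4 of 7 amino acid transporter and 4 of 13 ISR genes. The match was present in 1 of 7 amino acid synthesis, 1 of 18 ER chaperone, 1 of 16 glycolysis and 0 of 19 hypoxia target genes. ACGTG was found in 12 of 19 hypoxia target genes and 11 of 16 glycolysis genes, against 24.9% of all genes. It was also found in 10 of 18 ER chaperone genes, 6 of 11 p53 targets, 5 of 11 sterol genes and 3 of 7 transporter genes, so it was not particular to the hypoxia lists. Of the 6 genes of the rule, 4 were matched to the table, and 1 of them (ANGPTL4) held ACGTG and 0 held TGATGNAA. These matches describe letters in the windows and do not show binding.

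The 6 genes were not met equally often. HILPDA reached 5 reads in 66 of the 71 cells, STC2 in 65, NDRG1 in 56, TRIB3 in 43, GDF15 in 39 and ANGPTL4 in 34. In the other cells the corresponding shares were 21.8%, 23.9%, 19.0%, 8.61%, 3.78% and 7.40%. ANGPTL4 was met in 8 of 25 stress-state cells at day 60, in 10 of 20 at day 90, in 1 of 4 on chip a and in 15 of 22 on chip b. GDF15 was met in 16, 11, 2 and 10 of the same cells. The most common set, in 12 cells, was ANGPTL4, STC2, HILPDA and NDRG1, followed by STC2, HILPDA and NDRG1 with GDF15 (11 cells) or with TRIB3 (10 cells). In 52 of the 71 cells at least 2 genes of GDF15, TRIB3 and STC2 were met together with at least 2 of ANGPTL4, HILPDA and NDRG1. A single cell, from day 90, met all 6 genes, with 226 reads of GDF15, 78 of ANGPTL4, 62 of TRIB3, 376 of STC2, 160 of HILPDA and 18 of NDRG1 among 189810 reads.

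**Figure D1:**
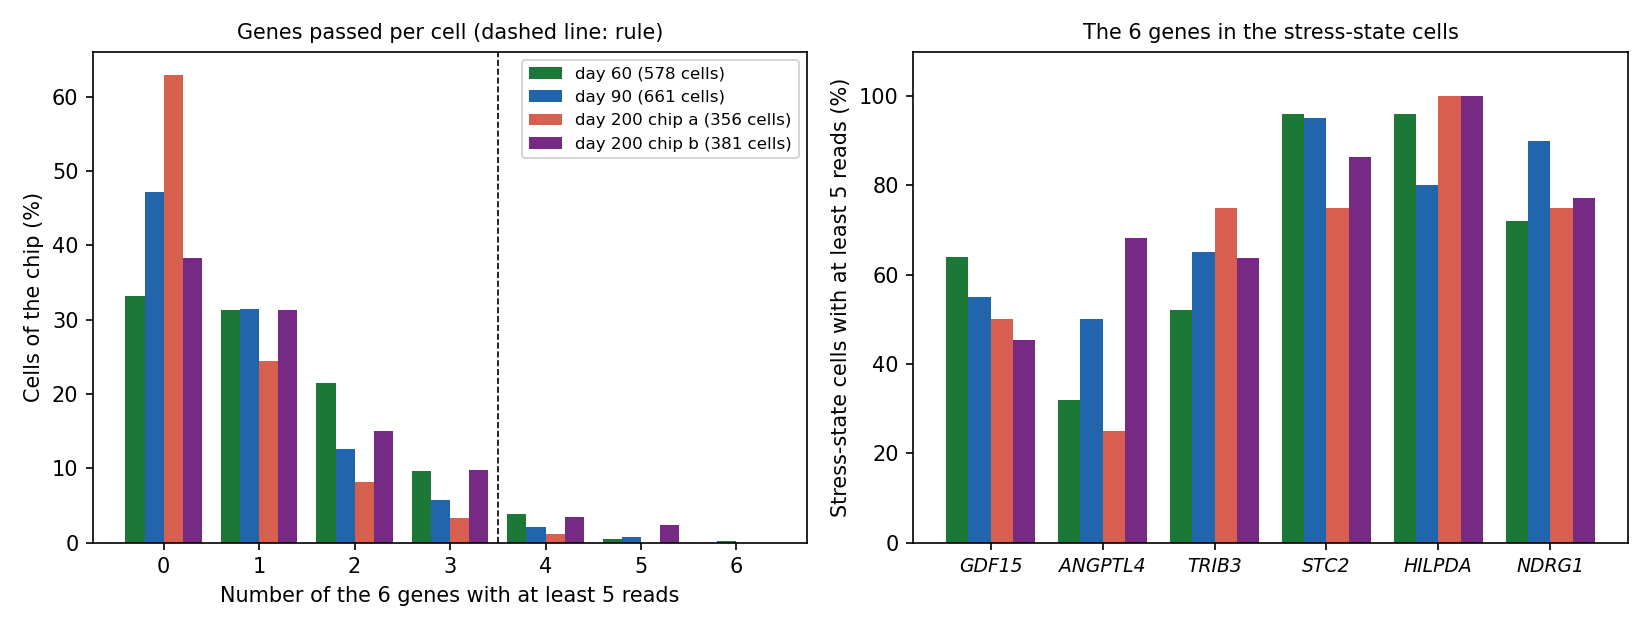
Left, share of the cells of each chip (%) by the number of the 6 genes with at least 5 reads, with the rule as a dashed line. Right, share of the stress-state cells of each chip (%) in which each gene reached 5 reads. Most cells of every chip met 0 or 1 gene, and among the 71 cells HILPDA and STC2 were met in 66 and 65, ANGPTL4 in 34.

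The share of stress-state cells was 4.33% at day 60 (exact binomial 95% interval 2.82 to 6.32%), 3.03% at day 90 (1.86 to 4.63%), 1.12% on chip a (0.307 to 2.85%) and 5.77% on chip b (3.65 to 8.61%). The intervals cover counting error only. The 2 chips of day 200 had the lowest and the highest share, so the spread between chips of one day was as wide as that between days. The cells were spread over chip columns, with at most 4 in a column, and 38 of the 79 columns had none. The threshold was a gradual one. Of the cells just inside it, 53 met exactly 4 genes, with median levels of 486 CPM (read counts of the gene scaled by all reads of the cell or group) for HILPDA and 353 CPM for STC2. Of those just outside, 143 met exactly 3, with medians of 139 CPM for HILPDA and 116 CPM for STC2.

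How the HIF-type and the ISR-type genes coincided is also a description of the choice, since it uses the same 6 genes and the same 5 reads. Of cells with at least 2 of GDF15, TRIB3 and STC2, 37.4% (52 of 139) met at least 2 of ANGPTL4, HILPDA and NDRG1, against 9.47% (174 of 1837) of the cells without them, and the 52 are stress-state cells by the rule. By chip the shares were 34.7% and 12.3% at day 60, 36.8% and 7.22% at day 90, 33.3% and 5.52% on chip a and 42.5% and 13.2% on chip b.

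Genes outside the rule were compared between stress-state cells and the other cells of the same chip. Reads summed per chip and state were tested first (edgeR quasi-likelihood test, chip as a block, 4 chips, 10663 genes). This test called 1 gene, FTL, higher (0.00938% of the genes tested) and 0 lower at an adjusted p of 0.05, with 417 genes at an unadjusted p under 0.05. The DESeq2 Wald test on the same sums called 123 genes higher and 471 lower. In the edgeR fit the median log2 fold change of all genes was -0.58, and -0.13 without chip a. Summed CPM was higher in stress-state cells on all 4 chips in 4.03% of the genes and lower in 18.3%. Genes that are higher with no overlap between the states are among the 4.03%, so their share is no larger. FTL encodes the light chain of ferritin, the iron store. Its level was 9259, 13193, 10949 and 6528 CPM in stress-state cells of day 60, day 90, chip a and chip b, against 3455, 3450, 2726 and 2995 CPM in the other cells. The groups did not overlap, and the log2 fold change was 1.76 (SE 0.16, edgeR adjusted p = 0.036). It was between 1.62 and 1.92 when any one chip was left out, and the call was then lost (edgeR adjusted p up to 0.30, without chip a) except without chip b. FTL has near-identical pseudogene copies, so reads may be split between them. Its partner FTH1, the heavy chain, was at 32.2, 32.2, 10.7 and 35.2 CPM against 8.13, 9.39, 9.07 and 9.88 CPM. FTH1 was thus higher on each chip but was not called (edgeR adjusted p = 0.94). Its levels were far below those of FTL, and on chip a the values were close and rest on 4 stress-state cells. Whether reads of FTH1 were lost to similar copies was not tested.

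A sum is led by the few cells with most reads of a gene. A second comparison, chosen after the edgeR result was seen, therefore used the mean over cells of log2(CPM + 1), with each cell thinned to 50000 reads. A difference on this scale, called a difference in mean log2 level below, combines how many cells have reads and how many reads they have. The means were fitted with limma (9044 genes). The weight of a chip was the inverse of the summed inverse cell numbers of its states. It thus followed mostly the stress-state cells (25, 20, 4 and 22 on day 60, day 90, chip a and chip b), and chip a weighed least. The fit called 255 genes higher (2.82% of the genes tested) and 120 lower (1.33%) in stress-state cells, with a median over all genes of 0.10. With chips at equal weight it called 51 higher and 6 lower, all 57 among the 375 called before. Without chip a it called 197 and 54, of which 239 were among the 375. Directions and calls of single genes below are from the weighted limma fit unless edgeR is named, p-values are adjusted over all its genes, and it compares chips. In this fit limma set the variance from all genes of like level, so the SE and p of a gene do not reflect its own spread over the 4 chips, which the values per chip show.

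ISR regulators rose together. Of 14 such genes, 12 were tested by limma, and 8 rose and 0 fell, with a median difference in mean log2 level of 1.65 against 0.10 for all genes. ATF5, a transcription factor induced by the ISR, was at 29.7, 320, 235 and 144 CPM on day 60, day 90, chip a and chip b in stress-state cells and at 13.4, 32.6, 44.9 and 33.5 CPM in the other cells (difference 2.69, SE 0.45, limma adjusted p = 1.4e-06). NUPR1, a small stress-induced chromatin protein, was at 67, 493, 302 and 1078 CPM against 14.1, 74.1, 160 and 111 CPM (difference 2.52, SE 0.45, adjusted p = 6.5e-06). Both were higher on every chip, although the levels at day 60 were the lowest of the 4. CEBPG (difference 2.02, limma adjusted p = 0.0022) and ATF3 (1.99, 0.0018), whose promoters are printed above, rose as well. So did DDIT3, which encodes the pro-apoptotic factor CHOP (1.94, 0.0045), CEBPB, SESN2 and DDIT4. ATF4 itself was at 357, 659, 418 and 512 CPM against 210, 345, 307 and 284 CPM. It was higher on all 4 chips but was not called (difference 1.27, SE 0.43, adjusted p = 0.069).

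Genes for making and loading amino acids rose with them. Of 10 amino acid synthesis genes tested, 7 rose and 0 fell (median 1.38). SHMT2, which makes mitochondrial glycine and one-carbon units, was at 109, 349, 415 and 211 CPM in stress-state cells and at 51.2, 79.2, 79.9 and 73 CPM in the other cells (difference 2.69, SE 0.47, adjusted p = 5.0e-06). MTHFD2, the next mitochondrial folate enzyme (2.23, adjusted p = 5.1e-05), the asparagine synthetase gene ASNS (1.62, 0.016) and the alanine transaminase gene GPT2 (1.50, 0.015) also rose. On chip a MTHFD2 had 0 reads in the 4 stress-state cells.

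Of 12 aminoacyl-tRNA synthetases, which load amino acids onto tRNA, 7 rose and 0 fell (median 1.55). GARS, the glycine enzyme, was at 255, 283, 16.1 and 625 CPM against 126, 154, 121 and 125 CPM (difference 2.75, SE 0.48, adjusted p = 4.5e-06). Its summed level was below that of the other cells on chip a. SARS, the serine enzyme, was at 475, 379, 405 and 509 CPM against 284, 218, 309 and 254 CPM (difference 2.58, SE 0.46, adjusted p = 9.1e-06), with no overlap between the groups. TARS, the threonine enzyme, rose by 2.15 and AARS, the alanine enzyme, by 2.08 (adjusted p = 0.0010 for both), although AARS was lower on chip a. Of 7 amino acid transporters tested, 2 rose and 0 fell. SLC3A2, the shared heavy chain of several amino acid exchangers, was at 496, 698, 775 and 341 CPM against 163, 235, 266 and 176 CPM (difference 3.14, SE 0.47, adjusted p = 2.8e-08), and SLC38A2, a glutamine carrier, differed by 1.78 (adjusted p = 0.0085).

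Hypoxia targets rose as well. Of 21 tested genes, 15 rose and 0 fell (median 1.54). ADM, which encodes the vasodilator adrenomedullin, was at 565, 198, 1172 and 417 CPM in stress-state cells and at 104, 98.4, 275 and 356 CPM in the other cells (difference 4.03, SE 0.48, adjusted p = 2.3e-13). It was higher on each chip, but the levels of the 2 states overlapped between chips. The difference at day 60 (5.20) was the highest of the 4. VEGFA, the angiogenic growth factor, was at 387, 514, 555 and 1318 CPM against 226, 200, 367 and 399 CPM (difference 3.24, SE 0.42, adjusted p = 1.4e-11). ERO1A, an oxidase of the ER, differed by 3.21 (adjusted p = 2.8e-08), although its sum on chip a was 79.5 CPM against 98.7 CPM, and INSIG2, an ER regulator of sterol synthesis, by 2.68 (9.7e-06).

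Of 16 glycolysis genes, 8 rose and 0 fell (median 1.16). HK2, the hexokinase whose promoter is printed above, was at 413, 325, 658 and 127 CPM against 131, 95.1, 146 and 120 CPM (difference 3.05, SE 0.48, adjusted p = 1.6e-07), and on chip b the sums were close. GPI (2.45), ENO2 (2.44) and PFKP (2.27), enzymes of later steps, rose on all 4 chips. The glucose transporter SLC2A1, counted with the hypoxia targets, was at 1508, 817, 772 and 1169 CPM against 663, 525, 533 and 677 CPM (difference 2.39, SE 0.41, adjusted p = 1.9e-06). Its sums did not overlap, but on chip a the difference in mean log2 level was -0.24. With chips at equal weight, 2 ISR regulators, 1 synthesis gene, 2 transporters, 1 tRNA synthetase, 5 hypoxia targets and 5 glycolysis genes were still called. Leaving out one chip in turn left 4 to 8, 2 to 6, 1 to 2, 2 to 7, 10 to 13 and 5 to 8.

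**Figure D2:**
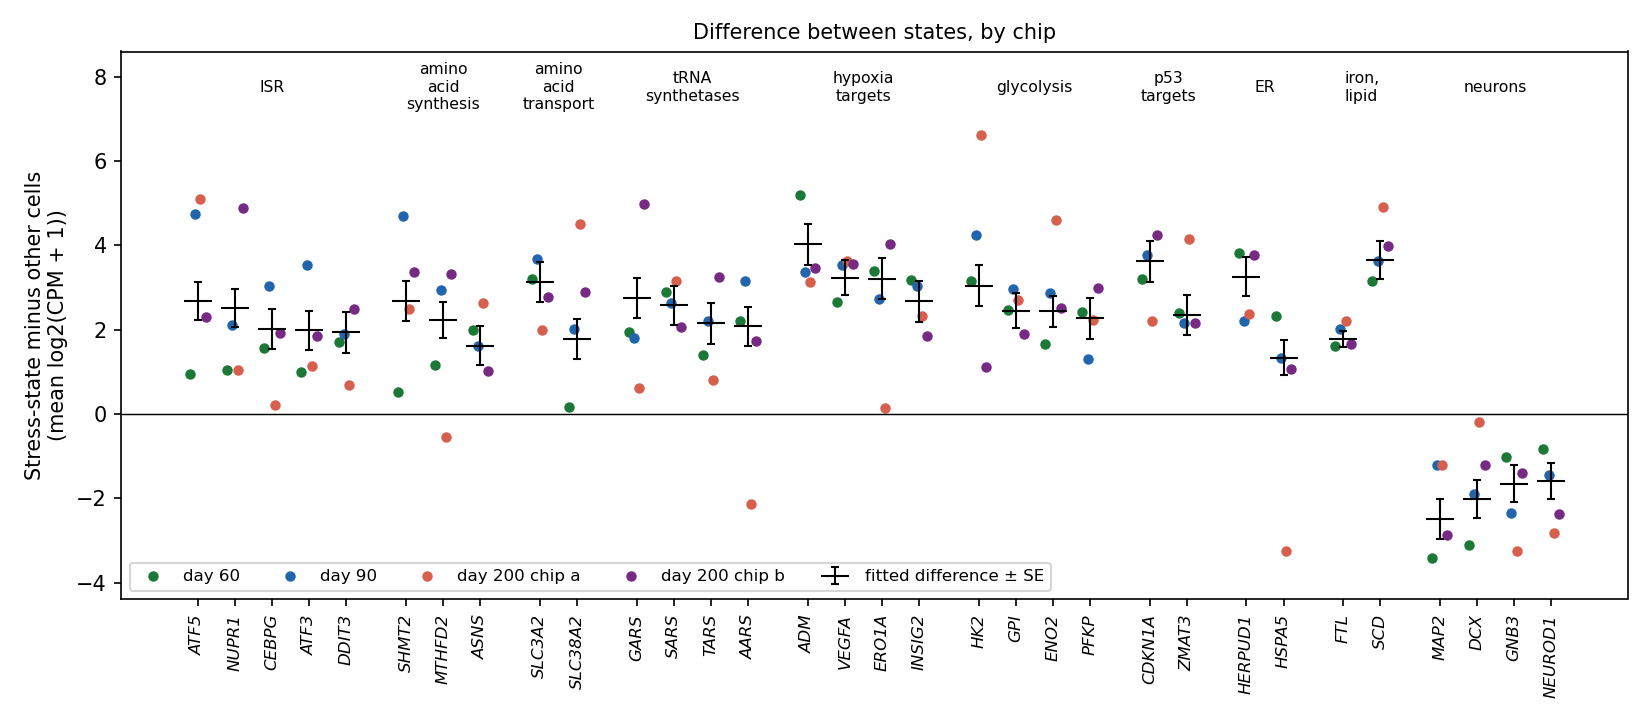
Difference in mean log2(CPM + 1) between stress-state and other cells (y axis) for genes of the lists (x axis), with 1 coloured point per chip and the fitted difference ± SE in black. FTL, VEGFA and SLC3A2 are above 0 on all 4 chips, while HSPA5, AARS and MTHFD2 are below 0 on chip a, which had 4 stress-state cells.

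Other stress programmes moved in part. Of 12 p53 targets tested, 6 rose and 0 fell, among them CDKN1A, the cell cycle inhibitor p21, at 428, 592, 522 and 575 CPM against 126, 155, 203 and 169 CPM (difference 3.62, SE 0.48, adjusted p = 8.5e-11). ZMAT3 (2.35, adjusted p = 0.00022) and TNFRSF10B, a death receptor gene also induced by CHOP (2.05, 0.00066), rose too, the latter on 3 of 4 chips. Of 19 ER chaperone and ER-associated degradation genes, 5 rose and 0 fell. HERPUD1, which acts in ER-associated degradation, was at 554, 521, 212 and 832 CPM against 170, 318, 199 and 297 CPM (difference 3.26, SE 0.47, adjusted p = 3.6e-09). DNAJB9, SEL1L, XBP1 and HSPA5, the main ER chaperone gene, rose by 1.93, 1.90, 1.79 and 1.34. HSPA5 and DNAJB9 were lower in the 4 cells of chip a. With chips at equal weight 1 of the 19 ER genes (HERPUD1) and 4 of the 12 p53 targets were called, and leaving out one chip left 3 to 5 and 4 to 6. The oxidoreductase genes PDIA3 and PDIA4 and CALR were not called, with differences of -0.07, -0.05 and -0.61.

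Cells that lack nutrients also turn to burning fat. Of 11 fasting and fatty acid oxidation genes tested, 1 rose and 0 fell (median 0.46 against 0.10 for all genes, of which 2.82% were called higher). The gene that rose was PLIN2, which encodes a lipid droplet coat protein (difference 1.69, adjusted p = 0.014). PLIN2 was not called with chips at equal weight (limma adjusted p = 0.14), with other cells weighted by lineage (0.056), or without day 60 or chip b. CPT1A, the entry step of fatty acid oxidation, had a difference of -0.35 (adjusted p = 0.42), and PDK4 had too few reads to be tested. Of 14 sterol genes 0 were called. Of 8 fatty acid synthesis genes 1 rose, SCD, the stearoyl-CoA desaturase gene, at 1469, 897, 1156 and 616 CPM against 346, 329, 220 and 217 CPM (difference 3.65, SE 0.45, adjusted p = 1.5e-12). FASN, in the same pathway, had a difference of -0.12. Of 8 heat shock genes 0 were called, and of 14 immediate early genes, which respond to cell dissociation among other stimuli, 1 rose (KLF4, 0.74) and 0 fell. FOS was at 213, 637, 654 and 1411 CPM against 303, 1117, 866 and 1120 CPM, so its order differed between chips. Of 10 autophagy and lysosome genes 2 rose, of 6 NRF2 targets 2 (FTL and NQO1), and of 4 inflammatory genes and 2 metallothioneins 0 were called. With chips at equal weight 0 immediate early genes, 0 autophagy and lysosome genes and 1 NRF2 target were called. Of 80 ribosomal protein genes 1 rose (median 0.21).

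**Figure D3:**
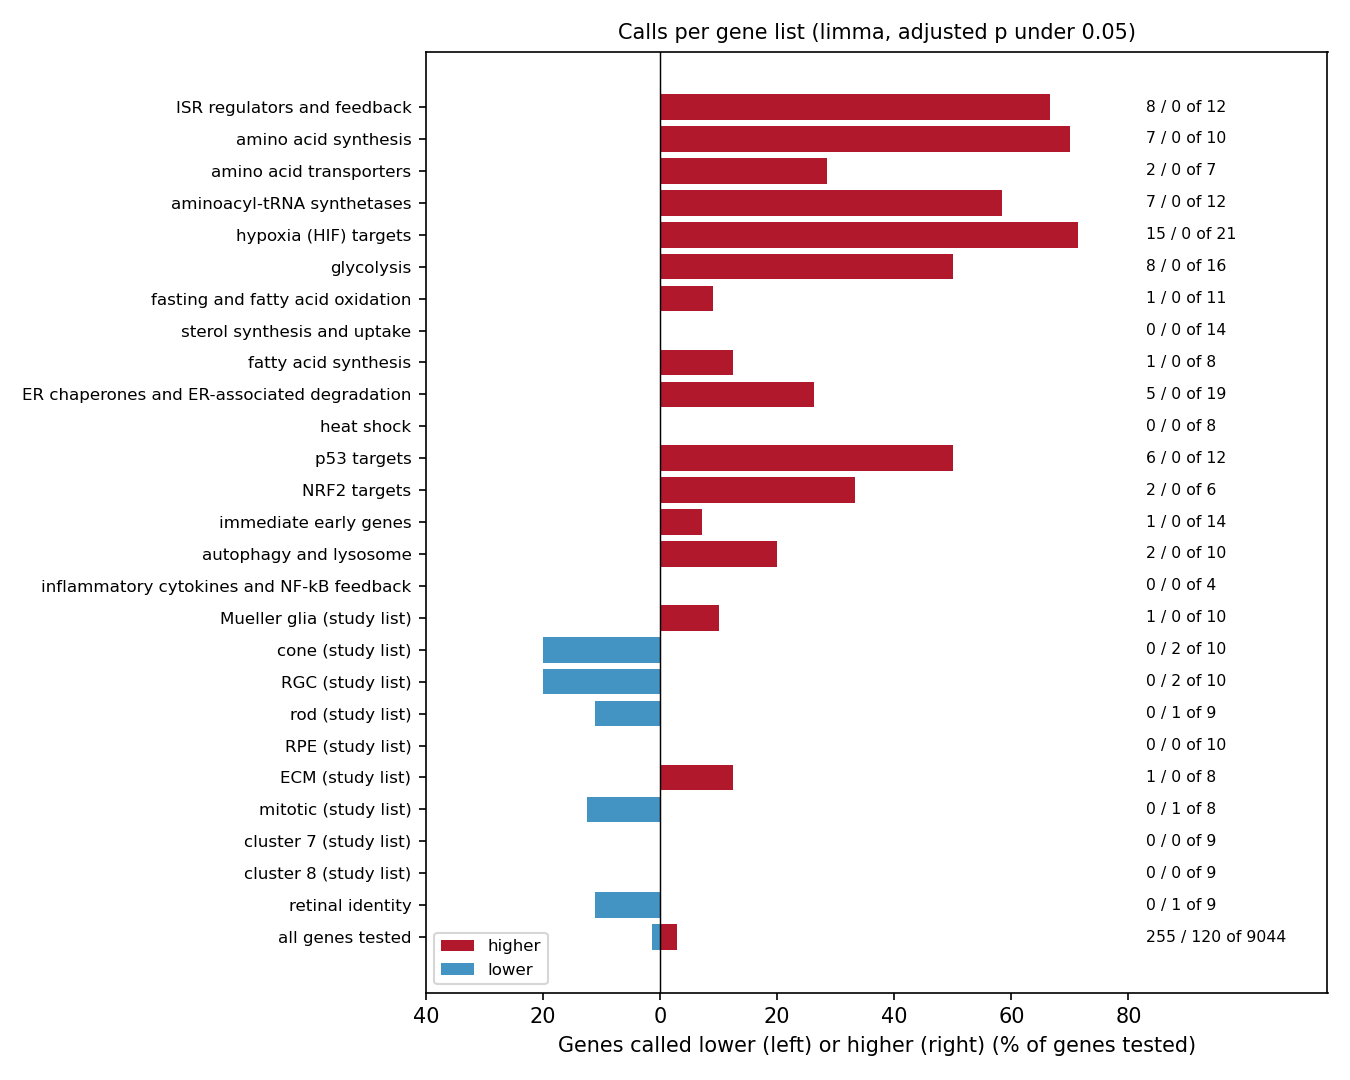
Share of the tested genes of each list (%) called higher (right, red) or lower (left, blue) in stress-state cells by limma, with the numbers higher / lower of tested beside each bar. ISR, amino acid synthesis, tRNA synthetase, hypoxia, glycolysis and p53 lists had 50% or more of their genes called higher, against 2.82% of all genes.

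By size over all genes, the 15 genes with the largest rise among those with at least 20 CPM and the same sign on all 4 chips were ADM, SCD, LITAF, CDKN1A, HERPUD1, VEGFA, ERO1A, SLC3A2, HK2, GBE1, FAM162A, GARS, SHMT2, RNMT and ATF5. Of these, 4 are on no list used here. LITAF, a lysosomal membrane protein gene, was at 247, 854, 657 and 537 CPM against 94.7, 260, 264 and 242 CPM (difference 3.62, SE 0.48, adjusted p = 6.0e-11). GBE1, the glycogen branching enzyme gene, rose by 2.99 (adjusted p = 1.2e-07), FAM162A, a mitochondrial gene known to respond to hypoxia, by 2.81 (1.6e-07) and RNMT, an mRNA cap methyltransferase gene, by 2.69 (2.3e-06).

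The 10 genes with the largest fall were MAP2, BEX1, DCX, PIK3R1, CKB, MARCKSL1, ANKRD36C, FSTL5, GNB3 and CHD7. MAP2, a neuronal microtubule protein gene, was at 187, 236, 513 and 112 CPM in stress-state cells and at 491, 582, 853 and 580 CPM in the other cells (difference -2.49, SE 0.48, adjusted p = 6.3e-05). DCX, of migrating young neurons, was at 91.9, 144, 8.94 and 59.1 CPM against 481, 236, 113 and 146 CPM (difference -2.01, SE 0.44, adjusted p = 0.00078). CKB, the brain creatine kinase gene, was at 549, 486, 430 and 657 CPM against 1806, 1675, 1957 and 1245 CPM (difference -1.78, SE 0.39, adjusted p = 0.00071). The summed CPM of each of the 3 was lower on all 4 chips, as was that of 18.3% of the 10663 genes of the edgeR test. GNB3, a G protein subunit gene of cones, was at 8.06, 95, 2.68 and 30.4 CPM against 62.2, 288, 685 and 263 CPM (difference -1.65, SE 0.44, adjusted p = 0.0093).

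Stress-state cells were found under all 9 lineage lists used. Each cell was assigned to the list, of the 9 marker lists of the study, with the highest mean standardized level, or to none where fewer than 3 of its 10 genes reached 5 reads. The lists were built on these samples and are not independent evidence. Of the 71 cells, 11 had the Müller glia list highest, 10 the extracellular matrix (ECM) list, 9 the retinal ganglion cell (RGC) list, 9 each the lists of clusters 7 and 8, 5 that of the retinal pigment epithelium (RPE), 4 the rod list, 4 the mitotic list, 3 the cone list and 7 none. As shares of the 71 cells, Müller glia made up 15.5%, cones 4.23% and rods 5.63%, against 23.1%, 13.0% and 10.4% of the other cells. ECM (14.1%), cluster 7 (12.7%) and cluster 8 (12.7%) were above their shares of the other cells (7.03%, 5.14% and 6.04%). These shares pool chips of unlike make-up and carry no test.

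**Figure D4:**
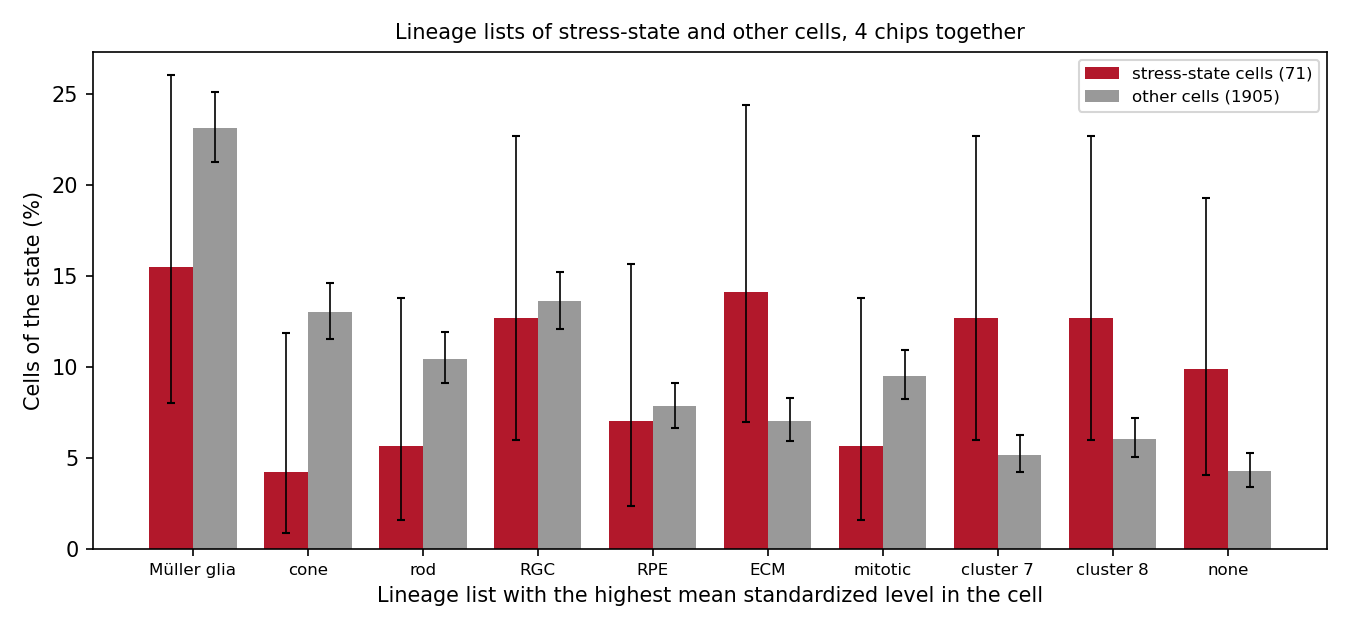
Share of the 71 stress-state cells (red) and of the 1905 other cells (grey) by the lineage list highest in the cell (%), with exact binomial 95% intervals that cover counting error only. All 9 lists are found among the stress-state cells, with cones at 4.23% against 13.0% of the other cells.

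By chip, some lists were above and others below their share of the other cells. At day 60 the RGC list was highest in 5 of 25 stress-state cells (20% against 34.4%) and the mitotic list in 3 (12% against 25.1%), while 5 cells had the cluster 8 list highest and 5 had no list highest (20% each, against 11.0% and 5.97%). At day 90 the cluster 7 list led with 4 of 20 cells (20% against 7.02%), the cone, rod and RPE lists had 3 each and the Müller glia list 1 (5% against 15.3%). On chip b the Müller glia list was highest in 8 of 22 cells (36.4% against 35.1%), the ECM list in 5 and the rod list in 0 (against 13.4%). No stress-state cell of day 200 had the cone list highest, among 72 such cells on chip a (exact interval 0 to 4.99%) and 33 on chip b (0 to 10.6%). At least 4 of the 10 Müller glia genes reached 5 reads in 65 of the 71 cells (91.5%) and in 73.6% of the other cells. This list holds VIM, CLU and HES1, which retinal progenitors also express. At least 4 of the 10 cone genes were met in 10 cells (14.1%, 8 of them from day 90) against 25.5%, and at least 4 RGC genes in 7 cells (9.86%) against 19.2%. With 1 read in place of 5 the RGC shares were 28.2% and 31.3%, and the cone shares 23.9% and 45.1%.

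Of the lineage genes tested singly, few were called. Of 10 cone genes 2 fell (GNB3 and GNGT2), of 10 RGC genes 2 (DCX and OLFM1), of 9 rod genes 1 (PCBP4), of 8 mitotic genes 1 (MKI67) and of 9 retinal identity genes 1 (NEUROD1). Of 10 Müller glia genes VIM rose and 0 fell, and of 8 ECM genes TIMP1 rose and 0 fell. Over all genes of the limma fit, 1.33% were called lower and 2.82% higher. The summed CPM of the Müller glia list was lower on all 4 chips (log2 ratios -0.35, -0.27, -0.98 and -0.25). In the edgeR fit the median log2 fold change of all genes was -0.58. On all 4 chips 6 of the 10 Müller glia genes were lower and 1 was higher, against 18.3% lower and 4.03% higher over all genes. The ECM sum was lower at day 90 and on chip a only (0.12, -1.73, -2.19 and 0.36). The summed CPM of the retinal identity list was lower in stress-state cells on all 4 chips (log2 ratios -0.98, -1.10, -0.84 and -0.27). Of its 9 tested genes, 6 were lower on all 4 chips and 0 higher, beside the same 18.3% and 4.03% of all genes. Of this list, the general regulators PAX6 and SIX3 were detected in 83.1% and 81.7% of the stress-state cells and 80.6% and 84.1% of the other cells. PAX6 was at 223, 210, 469 and 360 CPM against 480, 397, 430 and 409 CPM (difference -0.52, adjusted p = 0.62).

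Because the lineage mix differed between the states, the limma fit was repeated with the other cells of each chip weighted to the lineage lists of its stress-state cells, an alternative chosen after seeing the data. It called 192 genes higher and 58 lower, of which 238 were among the 375. The stress lists changed little, with 7 ISR regulators, 5 synthesis genes, 2 transporters, 7 tRNA synthetases, 13 hypoxia targets, 8 glycolysis genes and 6 p53 targets higher. FTL (1.63), ADM (3.67) and HK2 (3.28) kept their direction and their call. Of the cone, rod and mitotic genes 0 were called, and GNB3 had a difference of -0.99 (adjusted p = 0.20). Of the RGC genes DCX was still lower (-1.70, adjusted p = 0.0083), as was MAP2 (-1.93, 0.0064), but neither was called with chips at equal weight (0.17 and 0.063). CKB was no longer called (-1.17, 0.085), nor were PIK3R1 (0.082) and CHD7 (0.18). VIM (0.65, 0.32) and TIMP1 (1.32, 0.12) were not called either, here or with chips at equal weight, nor was NEUROD1 (-0.94, 0.19).

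The levels of both programmes within single cells were read from the summed CPM of the ISR and amino acid lists together and of the hypoxia list, which hold none of the 6 genes. The hypoxia sum was above the median of the other cells of the chip in 64 of the 71 cells, the ISR and amino acid sum in 60, both in 53 and neither in 0, while 25.6% of the other cells were above both. Among the 71 cells the 2 sums were not ordered alike (Pearson r = -0.13, Spearman rho = -0.02), nor were they in the 1905 other cells (r = 0.07, rho = 0.05). The hypoxia and glycolysis sums were ordered alike in the 71 cells (r = 0.63, rho = 0.55) and in the other cells (r = 0.41, rho = 0.44). These correlations describe cells from 4 chips that differ in depth. The 71 cells were chosen by genes of both types, which can itself alter a correlation within them. In cells with the Müller glia list highest, the median log2 hypoxia sum was 12.99 in 11 stress-state cells and 11.51 in 441 other cells, and in those with the RGC list 12.47 in 9 and 11.35 in 259. In cells with the rod list it was 11.74 in 4 and 11.06 in 199, while their ISR and amino acid sums were 13.60 and 11.78. The p53 sum was above the median in all 22 stress-state cells of chip b and in 58 of the 71.

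**Figure D5:**
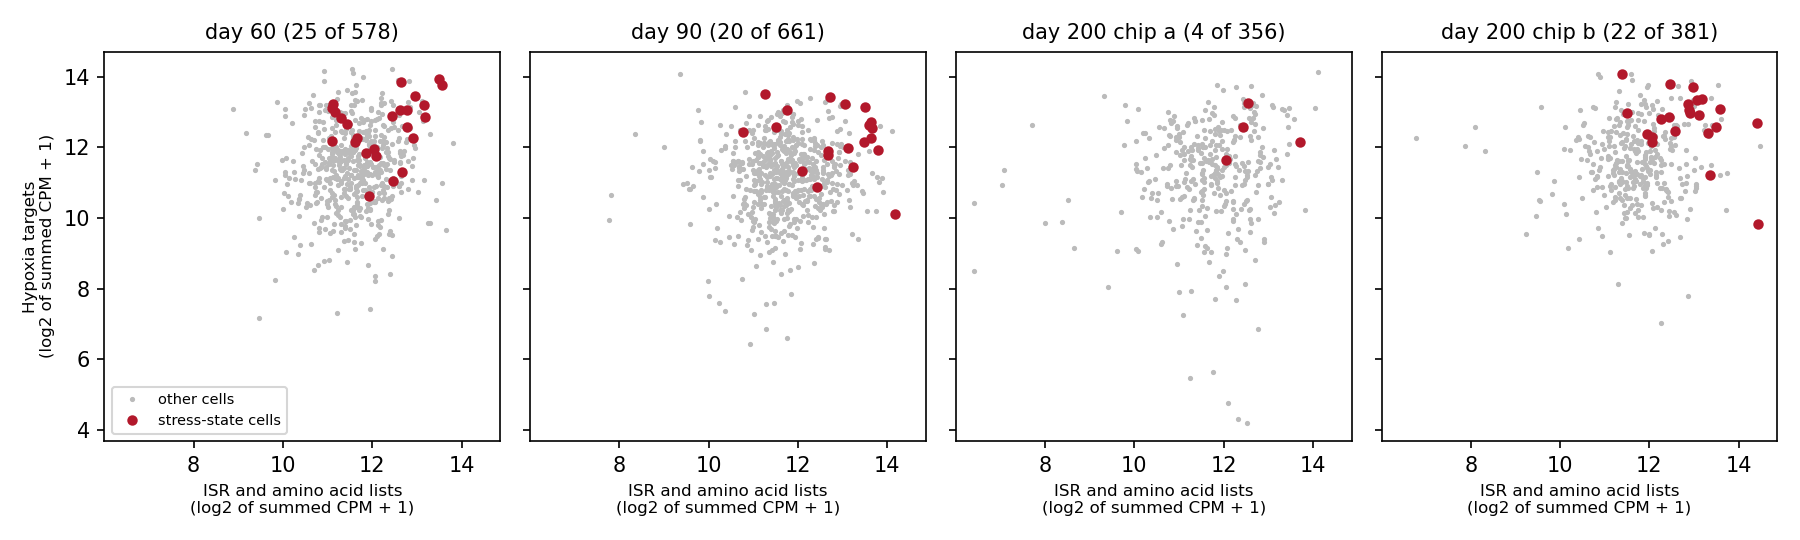
Each point is a cell, with the log2 of the summed CPM of the ISR and amino acid lists (x axis) and of the hypoxia targets (y axis), stress-state cells in red and other cells in grey, 1 panel per chip. Most red points lie towards the upper right, and 53 of the 71 are above the medians of the other cells of their chip for both sums.

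Summed levels of markers of other cell types varied between chips in both states. The summed level of 7 endothelial genes was 6.66 to 282 CPM in stress-state cells and 40.6 to 273 CPM in other cells over the chips, that of 3 immune genes 0 to 17.3 against 1.85 to 13.7 CPM and that of 5 skeletal muscle genes 8.65 to 31.3 against 11.8 to 76 CPM. The 5 astrocyte genes were at 11.5 to 204 against 66.4 to 157 CPM, 6 epithelial genes at 5.90 to 222 against 28.2 to 87.1 CPM, 3 lens genes at 0 to 33.4 against 3.23 to 10.4 CPM and 4 pluripotency genes at 0.444 to 2.69 against 0.796 to 3.14 CPM. The epithelial sum was higher in stress-state cells on 3 of 4 chips and lower on chip b (log2 ratios 0.32, 1.21, 2.93 and -3.15). The lens sum was higher at day 60 and on chip b (3.02, -3.51, -1.87 and 2.18). Of these lists, 1 gene was called, the astrocyte gene SLC1A2 (lower, difference -0.93, adjusted p = 0.043), beside 1.33% of all genes called lower. Over all 71 cells, 3 endothelial, 1 immune, 1 muscle, 2 lens and 2 pluripotency genes had 0 reads. The part of these cell types, of the mitochondrial share and of doublets in the results was not tested, beyond the fit with called doublets removed.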

How the data were processed

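The authors trimmed reads (Trimmomatic 0.33), aligned them to GRCh38.p7 with STAR 2.4.0 and counted them per gene with HTSeq 0.6, per the labels. They deposited raw read counts for 24415 rows and 1976 cells. Their methods state filters on reads and mitochondrial share, but the table holds cells with as few as 7549 counted reads and up to 39.7% mitochondrial reads, and all were kept. The cell with 7549 reads was from day 90, where the methods describe more added spike-in RNA and a looser spike-in filter. Whether the filter on reads counted spike-in reads is not stated. No strand setting is given in the sources used here. Cells were placed in chips by the sample name of their column, and the spike-in row was kept out of library sizes. The members and gene lists were chosen with earlier results of these data known.

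Reads were summed per chip and state and tested with edgeR 4.0.16 (TMM, chip block, genes with reads in at least 10% of the cells of either state) without the 6 genes of the rule, and with DESeq2 1.42.0 as an alternative. Named genes are list examples by size of difference, plus the 15 largest rises and 10 largest falls. This rule was applied to the limma 3.58.1 calls after the edgeR result was seen, and any other gene named was chosen after its values were seen. Thinning draws reads without replacement. Doublets were called with scrublet in scanpy 1.11.5. The unit of comparison is the chip, with 4 chips of 1 cell line. The limma p-values rest on a variance shared over genes and not on a gene's own spread over the chips.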

Additional observations from a re-analysis of the deposited data

Results flagged for a closer look

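On day 60 the difference in mean log2 level of ADM (5.20) and of VEGFA (2.67) stood apart from those of the other chips, ADM above and VEGFA below them, and that of ANKRD36C (-3.05) lay below them. Chance flags about 5% of the groups tested, and 51 groups of 4 chips were tested.

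The difference between states differed between day 200 and day 60 in 2 genes (edgeR, state by day term, 1 residual degree of freedom). For MALAT1, a long nuclear RNA, the difference between days was -0.53 on the log2 scale (adjusted p = 5.0e-05). For CRYAB, a small heat shock protein gene, it was -6.74 (adjusted p = 5.0e-05), with 6.26 CPM in the 4 stress-state cells of chip a against 467 CPM in its other cells, 1486 against 466 CPM on chip b and 765 against 32 CPM at day 60. Chip a alone had the lower level in stress-state cells, and no fit without it was made for this term.

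A row named GFP-Spike, which no comparison used and whose meaning is not given in the sources used here, held 36 reads in 4 stress-state cells of day 200 and 19455 reads in 254 other cells, and 0 reads at days 60 and 90.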

How the results depend on the processing

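The edgeR test called 1 gene higher and 0 lower. It called 2 higher with DESeq2 size factors or with at least 5 of the 6 genes asked for, 7 higher and 4 lower without a filter on low counts, 0 higher with at least 3 of the 6 genes or without the chip block, and 0 higher and 2 lower in cells of the Müller glia list alone, where 3 chips had 1 stress-state cell each. Leaving out one chip gave 0 to 1 higher, with FTL called only without chip b. The DESeq2 Wald test called 123 higher and 471 lower. The limma fits were chosen after seeing the data and called 255 higher and 120 lower, 51 and 6 with chips at equal weight, 214 and 87 without thinning, and 192 and 58 with other cells weighted by lineage. Without day 60, day 90, chip a and chip b they called 150, 142, 197 and 137 higher and 58, 117, 54 and 105 lower. The DESeq2 test of the day term called 10 genes in place of 2. The cause of these differences was not tested.

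The share of stress-state cells was 14.0, 8.77, 4.49 and 15.5% (day 60, day 90, chip a, chip b) with 3 of the 6 genes and 0.519, 0.908, 0 and 2.36% with 5. With 1 read in place of 5, at least 4 lineage genes were met in 100% (Müller glia), 28.2% (RGC), 26.8% (rod), 39.4% (RPE), 38% (ECM), 23.9% (mitotic), 38% (cluster 7) and 42.3% (cluster 8) of the stress-state cells, against 94.1, 31.3, 35.2, 33.1, 28.1, 25.0, 39.3 and 32.7% of the other cells. Cone genes were met in 5.63% with 10 reads (other cells 21.9%) and 4.23% after thinning (20.2%), rod genes in 5.63% after thinning (15.4%).

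In cells of the Müller glia list alone, the edgeR log2 fold changes of CDKN1A (-2.38), HERPUD1 (-2.38), ERO1A (-1.78), SLC3A2 (-1.48), GBE1 (-1.79), GARS (-6.58), SHMT2 (-1.84) and ATF5 (-4.00) turned negative, and that of GARS was -0.0081 without chip b and 1.54 without chip a. The median of all genes was -3.30 in that fit. The comparison of states was paired by chip, since each chip gave both states and the fit holds chip as a block. Replicate numbers name columns within a chip and pair no samples across chips. The 4 cells of chip a and the single chips at days 60 and 90 limit what the comparison can show.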
